A study of Arabidopsis thaliana with 6 samples.

Results

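The Aux/IAA repressors and GH3 enzymes are the early auxin-response genes described here: 29 Aux/IAA genes and 8 GH3 genes, JAR1 among them, which make 37 of the 33557 genes in the authors' deposited table. They were taken from the table by a list of locus identifiers, and the list sets no condition on a measured value. All 37 were among the 23937 genes that the authors tested.

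Whole seedlings of Arabidopsis thaliana, 4 days old, were the source of the RNA. The labels code the light regime, which both genotypes received, as D4d+FR3h, where FR stands for far-red. The first genotype, called the GFP-FHY1 line here, is the fhy1-1 mutant carrying a GFP-FHY1 fusion behind the 35S promoter, which is active in most plant cells. The other is the fhy1-1 mutant alone, so both groups carry fhy1-1, and there were 3 libraries of each. FHY1 carries phytochrome A, the receptor for far-red light, into the nucleus. There was no wild type and no seedling without far-red, so a return of FHY1 function and an excess of FHY1 cannot be told apart, and neither can a response to the light and a standing difference between the lines. The table holds 1 value per gene and genotype, in FPKM, a level that is scaled to transcript length and to library size, which the authors combined over the 3 libraries. No value per library, no SD and no depth can therefore be given. Each log2 fold change below (GFP-FHY1 over fhy1-1) carries a 95% interval from the error implied by the authors' test statistic, and a gene is said to be called where the authors' q was below 0.05.

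FHY1, the check on the labels, stood at 195.9 FPKM in the GFP-FHY1 line and 18.95 FPKM in fhy1-1, with reads of the transgene and of the mutant gene counted together. Markers of root (RHD6, PLT1, WOX5 and COBL9) and of shoot (STM, CLV3 and ATML1) all had values above 0. Their means of both genotypes ran from 0.497 to 10.2 FPKM and from 0.170 to 29.0 FPKM, and none of these 7 genes was called. The lowest of each, PLT1 and CLV3, had log2 intervals from -0.47 to 1.05 and from -4.60 to 2.78. Their lack of a call therefore leaves wide room for a difference. The pollen gene VGD1 was listed at 0 in both genotypes. In whole seedlings, fewer cells of a type and less RNA per cell cannot be told apart.

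Auxin acts by removing repressors. Aux/IAA proteins sit on auxin response factors (ARFs) at auxin-responsive genes and recruit TOPLESS-type corepressors. When auxin is present, it joins the F-box receptors TIR1 and AFB to a short degron in the Aux/IAA protein, the repressor is degraded, and the ARFs act. Many Aux/IAA and GH3 genes are themselves switched on by auxin, and so feed back on the response. GH3 enzymes join acyl acids to amino acids: several conjugate auxin and lower its free level, while JAR1 makes the active form of jasmonate. In seedlings the system is best known from hypocotyl growth, phototropism, shade responses and root branching.

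The core of the degron is a run of Gly-Trp-Pro-Pro codons. In the RefSeq coding sequences (TAIR10.1) this run, any of the codons of the 4 residues read in frame, was found in 23 of the 29 Aux/IAA genes and in none of the 8 GH3 genes. The 6 Aux/IAA genes without it were IAA20, IAA30, IAA31, IAA32, IAA33 and IAA34. The stretch is shown for the most abundant member and for the 6 members whose levels are described in most detail, 39 bases each with the 4 codons in capitals. It lies on the plus strand at chr1:1136935-1136973 for IAA17, chr5:9033809-9033847 for IAA28 and chr3:5264304-5264342 for IAA19. It lies on the minus strand at chr3:8181381-8181419 for IAA2, chr4:8349472-8349510 for IAA14 and chr3:5613656-5613694 for IAA26. In IAA12 it spans an intron and is shown joined.
IAA17: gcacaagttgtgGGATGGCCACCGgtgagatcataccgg
IAA2: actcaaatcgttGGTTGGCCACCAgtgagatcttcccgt
IAA12: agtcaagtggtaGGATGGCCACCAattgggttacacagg
IAA14: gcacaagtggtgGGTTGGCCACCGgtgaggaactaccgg
IAA28: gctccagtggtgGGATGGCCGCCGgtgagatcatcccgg
IAA19: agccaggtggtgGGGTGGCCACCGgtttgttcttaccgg
IAA26: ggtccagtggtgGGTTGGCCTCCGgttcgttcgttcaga

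Calls in both families went in both directions. Of the 29 Aux/IAA genes, 4 were called higher in the GFP-FHY1 line (IAA2, IAA12, IAA14 and IAA28) and 7 lower (IAA8, IAA9, IAA16, IAA17, IAA19, IAA20 and IAA26). Of the 8 GH3 genes, GH3.10 was called higher, and GH3.3 and GH3.5 lower. Together 14 of the 37 members, 37.8%, were called in the authors' deposited table, where 22.8% of all tested genes were called, 9.92% higher and 12.9% lower. Calls are more frequent among abundant transcripts: of the tested genes at a mean of at least 5 FPKM, 35.3% were called, and all 14 called members were among the 27 members at that level. The median of those 27 was 39.5 FPKM, against 17.3 FPKM for all tested genes at that level.

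None of the called changes was large. The median log2 fold change was 0.07 for the Aux/IAA genes and -0.07 for the GH3 genes, against -0.05 for all tested genes. Of the 37 members, 33 differed by less than 1.5-fold. None of the 14 called members reached a 2-fold difference, a size that 2.6% of all tested genes reached with a call. The Aux/IAA genes summed to 1706 FPKM in the GFP-FHY1 line and 1756 FPKM in fhy1-1, a ratio of 0.971. The GH3 genes summed to 181.3 FPKM in the GFP-FHY1 line and 185.0 FPKM in fhy1-1, a ratio of 0.980. Over all tested genes the ratio of the sums was 1.13, while their median log2 fold change was -0.05.

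**Figure D1:**
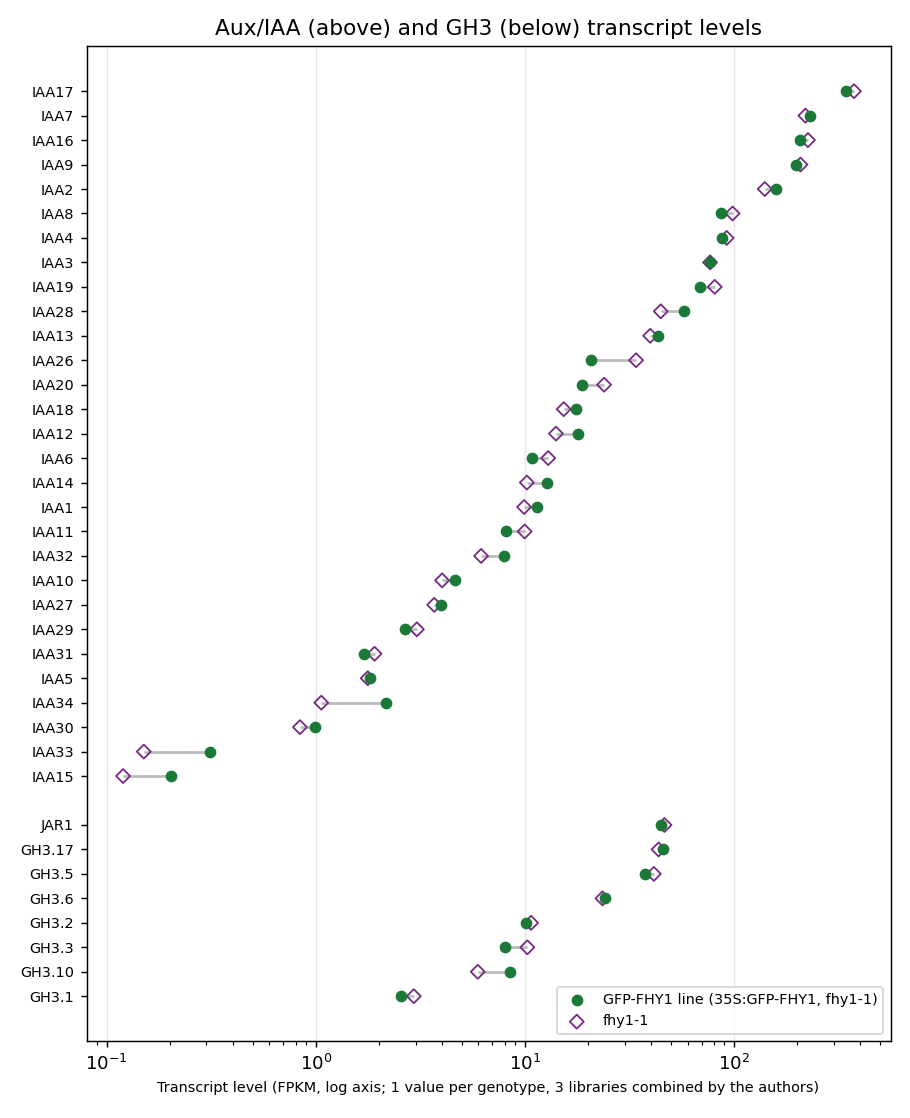
Transcript levels in FPKM (log axis) of the 29 Aux/IAA genes (above) and 8 GH3 genes (below), ordered by their mean; filled circles are the GFP-FHY1 line and open diamonds fhy1-1, each 1 value combined over 3 libraries by the authors. The levels run from 0.120 FPKM (IAA15, fhy1-1) to 375.3 FPKM (IAA17, fhy1-1), and the gap between the genotypes is small against the range between genes.

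A few repressors made up most of the Aux/IAA pool. IAA17, known as AXR3 from auxin-resistant mutants, was the most abundant at 344.9 FPKM in the GFP-FHY1 line and 375.3 FPKM in fhy1-1. IAA7, known as AXR2, stood at 230.7 FPKM in the GFP-FHY1 line and 219.8 FPKM in fhy1-1. IAA16 stood at 206.1 FPKM and 226.1 FPKM, and IAA9 at 198.0 FPKM and 208.1 FPKM, in the GFP-FHY1 line and fhy1-1. These 4 genes held 57.4% of the summed Aux/IAA FPKM in the GFP-FHY1 line and 58.6% in fhy1-1, and the 10 most abundant held 89.0% in both. IAA17, IAA16 and IAA9 were called lower and IAA7 was not called, so 3 of the 4 leading repressors fell slightly.

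The falls of these abundant repressors were among the smallest that were called. On the log2 scale, the difference of IAA17 (AT1G04250, chromosome 1, 1136258 to 1138613, TAIR10) was -0.12, with an interval from -0.16 to -0.08 (q = 6.86e-08 in the authors' deposited table). That of IAA16 (AT3G04730, chromosome 3, 1288612 to 1290602) was -0.13, with an interval from -0.18 to -0.08 (q = 1.04e-06 in the authors' deposited table). IAA9 (AT5G65670, chromosome 5, 26253658 to 26256468) was at -0.07, from -0.13 to -0.02 (q = 0.0389 in the authors' deposited table). IAA8 (AT2G22670, chromosome 2, 9636380 to 9638745), the closest relative of IAA9, stood at 86.8 FPKM in the GFP-FHY1 line and 98.6 FPKM in fhy1-1, a log2 fold change of -0.18. IAA7 (AT3G23050) was at 0.07, from 0.01 to 0.13, and its q in the authors' deposited table was 0.0571.

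IAA26 fell most. IAA26 (AT3G16500, chromosome 3, 5612500 to 5614410) is also known as PHYTOCHROME-ASSOCIATED PROTEIN 1, from its binding to phytochrome, and is unrelated to the anthocyanin regulator that shares the abbreviation PAP1. It stood at 20.8 FPKM in the GFP-FHY1 line and 34.0 FPKM in fhy1-1 and was 1.63-fold lower in the GFP-FHY1 line. On the log2 scale it differed by -0.71, with an interval from -0.85 to -0.57, and its q is listed as 0 in the authors' deposited table. IAA27 (AT4G29080), named PHYTOCHROME-ASSOCIATED PROTEIN 2, stood at 3.98 FPKM in the GFP-FHY1 line and 3.68 FPKM in fhy1-1 and was not called.

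IAA19 and IAA20 were also called lower. IAA19 (AT3G15540, chromosome 3, 5264024 to 5265678) is known as MASSUGU2 from a mutant impaired in hypocotyl bending towards light and against gravity. IAA19 stood at 69.1 FPKM in the GFP-FHY1 line and 81.0 FPKM in fhy1-1. Its log2 fold change was -0.23, from -0.32 to -0.13 (q = 1.76e-05 in the authors' deposited table). IAA20 (AT2G46990, chromosome 2, 19307855 to 19308990), which lacks the degron codons, stood at 18.8 FPKM in the GFP-FHY1 line and 24.0 FPKM in fhy1-1, a log2 fold change of -0.35, from -0.58 to -0.11 (q = 0.0196 in the authors' deposited table). IAA29 (AT4G32280), a shade-induced target of PIF factors, stood at 2.67 FPKM in the GFP-FHY1 line and 3.04 FPKM in fhy1-1 and was not called.

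The Aux/IAA genes called higher were IAA28, IAA12, IAA14 and IAA2. IAA28 (AT5G25890, chromosome 5, 9033415 to 9034834), which restrains lateral root formation, reached 58.0 FPKM in the GFP-FHY1 line, against 44.7 FPKM in fhy1-1. Its log2 fold change was 0.38, from 0.25 to 0.50 (q = 6.86e-08 in the authors' deposited table). IAA12 (AT1G04550, chromosome 1, 1240375 to 1242121), known as BODENLOS from a mutant without an embryonic root, reached 17.9 FPKM in the GFP-FHY1 line, against 14.1 FPKM in fhy1-1. IAA12 differed by 0.34 on the log2 scale, from 0.16 to 0.53 (q = 0.00235 in the authors' deposited table). IAA14 (AT4G14550, chromosome 4, 8347822 to 8350019), known as SOLITARY-ROOT from a mutant without lateral roots, reached 12.7 FPKM in the GFP-FHY1 line, against 10.2 FPKM in fhy1-1. IAA14 differed by 0.32 on the log2 scale, from 0.12 to 0.51 (q = 0.0103 in the authors' deposited table).

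IAA2, a gene known for its fast induction by auxin, was the most abundant of the 4 repressors called higher as deposited. The more abundant IAA7, given above, was called higher only relative to the median gene. IAA2 (AT3G23030, chromosome 3, 8180768 to 8181800) stood at 159.6 FPKM in the GFP-FHY1 line and 140.5 FPKM in fhy1-1. Its log2 fold change was 0.18, from 0.11 to 0.26 (q = 4.69e-06 in the authors' deposited table). The difference of 19.1 FPKM was the greatest gain of any Aux/IAA gene, while the greatest loss was that of IAA17, which fell by 30.4 FPKM. Of other repressors known to be induced by auxin, IAA19, given above, was called lower, while IAA1 and IAA5 were not called. IAA1 (AT4G14560) stood at 11.4 FPKM in the GFP-FHY1 line and 9.92 FPKM in fhy1-1, and IAA5 (AT1G15580) at 1.82 FPKM and 1.77 FPKM. IAA3 (AT1G04240), known as SHY2 from a suppressor of phytochrome-deficient mutants, differed least of all members, with 77.3 FPKM in the GFP-FHY1 line and 76.9 FPKM in fhy1-1.

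The 18 Aux/IAA genes that were not called had log2 fold changes of both signs and included both abundant and scarce transcripts. All 9 Aux/IAA genes under a mean of 5 FPKM were uncalled, and their median implied error was 0.41 on the log2 scale, against 0.07 for the other 20. The 2 members that differed at least 2-fold were among them. IAA34 (AT1G15050) stood at 2.16 FPKM in the GFP-FHY1 line and 1.06 FPKM in fhy1-1, with an interval from 0.00 to 2.05 on the log2 scale. IAA33 (AT5G57420) stood at 0.311 FPKM and 0.150 FPKM in the GFP-FHY1 line and fhy1-1, with an interval from -1.67 to 3.77. IAA15 (AT1G80390) was the lowest of all at 0.202 FPKM in the GFP-FHY1 line and 0.120 FPKM in fhy1-1. None of the 3 was called, and the q of IAA34 in the authors' deposited table was 0.166.

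Among the better expressed uncalled repressors, IAA4 (AT5G43700) stood at 87.5 FPKM in the GFP-FHY1 line and 92.3 FPKM in fhy1-1. IAA6 (AT1G52830), known as SHY1, stood at 10.8 FPKM in the GFP-FHY1 line and 12.9 FPKM in fhy1-1. IAA11 (AT4G28640) stood at 8.15 FPKM in the GFP-FHY1 line and 9.98 FPKM in fhy1-1. The values of these 3 were lower in the GFP-FHY1 line, with log2 fold changes from -0.29 to -0.08. IAA10 (AT1G04100), which lies under a mean of 5 FPKM, stood at 4.61 FPKM in the GFP-FHY1 line and 4.02 FPKM in fhy1-1. Its log2 fold change was 0.20, from -0.15 to 0.54. IAA32 (AT2G01200) stood at 7.97 FPKM in the GFP-FHY1 line and 6.18 FPKM in fhy1-1. Of the other genes without degron codons, IAA30 (AT3G62100) had 0.991 FPKM in the GFP-FHY1 line and 0.840 FPKM in fhy1-1, and IAA31 (AT3G17600) had 1.70 FPKM and 1.91 FPKM.

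**Figure D2:**
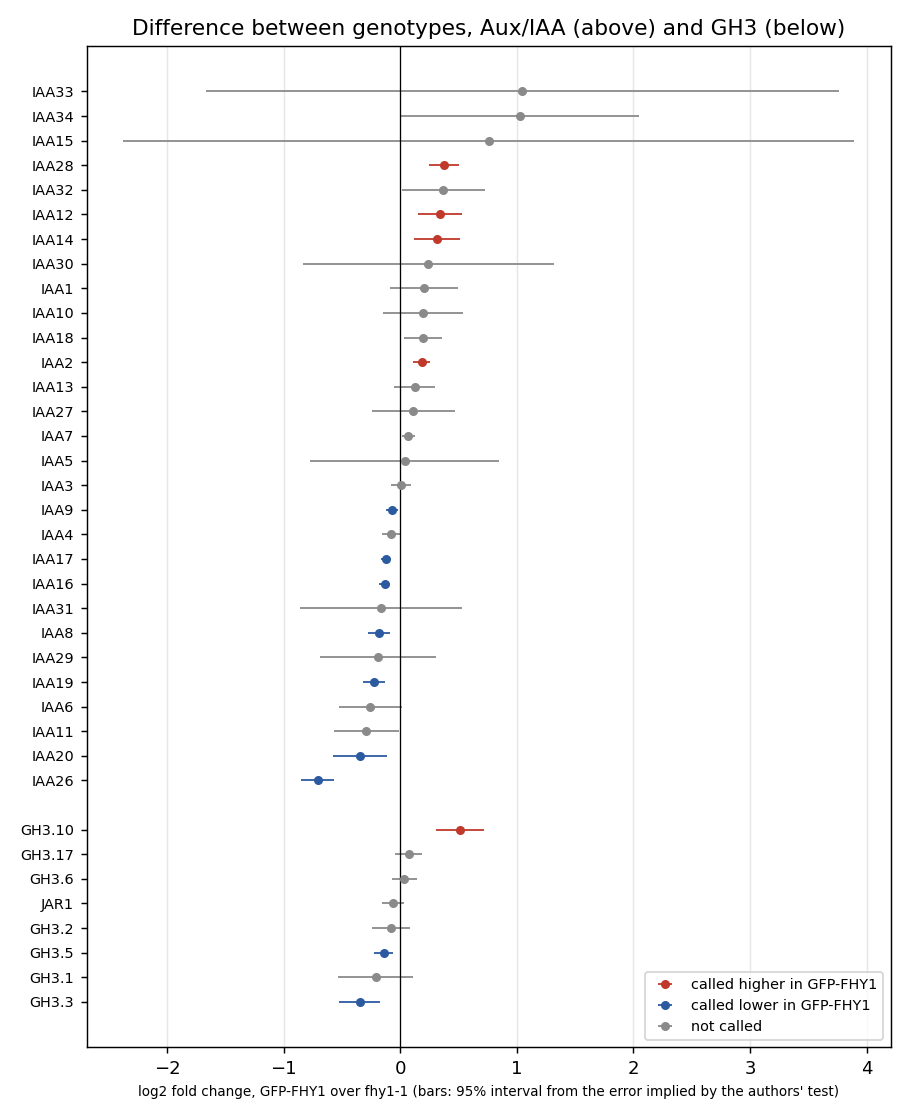
log2 fold change of each member, GFP-FHY1 over fhy1-1, for the Aux/IAA genes (above) and GH3 genes (below), with bars for the 95% interval from the error implied by the authors' test; red was called higher, blue lower and grey not called. IAA26 lies lowest at -0.71 and GH3.10 is the highest called member at 0.51, while the wide grey bars at the top belong to IAA33, IAA34 and IAA15.

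Aux/IAA genes without the degron codons were mostly weakly expressed. Of these 6 genes, 5 had a mean under 10 FPKM, against 6 of the 23 genes that have the codons. The remaining 1 of the 6, IAA20, was also the only one called. Their median log2 fold change was 0.30, with 5 of the 6 uncalled, against 0.04 for the 23 genes. Among the 23 genes with degron codons, 4 were called higher and 6 lower. Whether the 6 genes respond differently from the 23 was not tested, since the members are not replicates of a condition.

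Among GH3 enzymes GH3.10 rose and the auxin-conjugating enzymes GH3.3 and GH3.5 fell. GH3.10 (AT4G03400, chromosome 4, 1497536 to 1499865), known as DWARF IN LIGHT 2 from its effect on hypocotyl length, reached 8.50 FPKM in the GFP-FHY1 line, against 5.96 FPKM in fhy1-1. Its log2 fold change was 0.51, from 0.31 to 0.72 (q = 8.84e-06 in the authors' deposited table), the greatest of any called member in that direction. GH3.3 (AT2G23170, chromosome 2, 9863855 to 9866562) stood at 8.07 FPKM in the GFP-FHY1 line and 10.3 FPKM in fhy1-1, a log2 fold change of -0.35, from -0.53 to -0.17 (q = 7.82e-04 in the authors' deposited table). GH3.5 (AT4G27260, chromosome 4, 13653609 to 13656204), known as WES1, stood at 37.5 FPKM in the GFP-FHY1 line and 41.4 FPKM in fhy1-1, a log2 fold change of -0.14, from -0.23 to -0.06 (q = 0.00477 in the authors' deposited table).

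The most abundant GH3 genes were not called. JAR1 (AT2G46370), which makes jasmonoyl-isoleucine and is also known as FIN219 from a far-red-insensitive mutant, stood at 44.6 FPKM in the GFP-FHY1 line and 46.6 FPKM in fhy1-1. Its interval ran from -0.16 to 0.03 on the log2 scale. GH3.17 (AT1G28130), which conjugates auxin to glutamate, stood at 45.9 FPKM in the GFP-FHY1 line and 43.6 FPKM in fhy1-1, from -0.04 to 0.19. GH3.6 (AT5G54510), known as DWARF IN LIGHT 1, stood at 24.1 FPKM in the GFP-FHY1 line and 23.5 FPKM in fhy1-1. GH3.2 (AT4G37390) stood at 10.1 FPKM and 10.7 FPKM, and GH3.1 (AT2G14960), the least abundant, at 2.54 FPKM and 2.94 FPKM, in the GFP-FHY1 line and fhy1-1.

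Set side by side, the families had similar shares of called genes over all members, and different levels. Calls took 37.9% of the Aux/IAA genes and 37.5% of the GH3 genes, against 22.8% of all tested genes. At a mean of at least 5 FPKM the shares were further apart. There 11 of 20 Aux/IAA genes (55.0%) and 3 of 7 GH3 genes (42.9%) were called, against 35.3% of all tested genes. The widest called fall was that of IAA26 (-0.71) among the Aux/IAA genes and that of GH3.3 (-0.35) among the GH3 genes. The widest called gains were 0.38 for IAA28 and 0.51 for GH3.10. The 5 most abundant Aux/IAA genes stood between 140.5 FPKM and 375.3 FPKM, while the highest GH3 value was the 46.6 FPKM of JAR1 in fhy1-1. No test between the families was made.

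**Figure D3:**
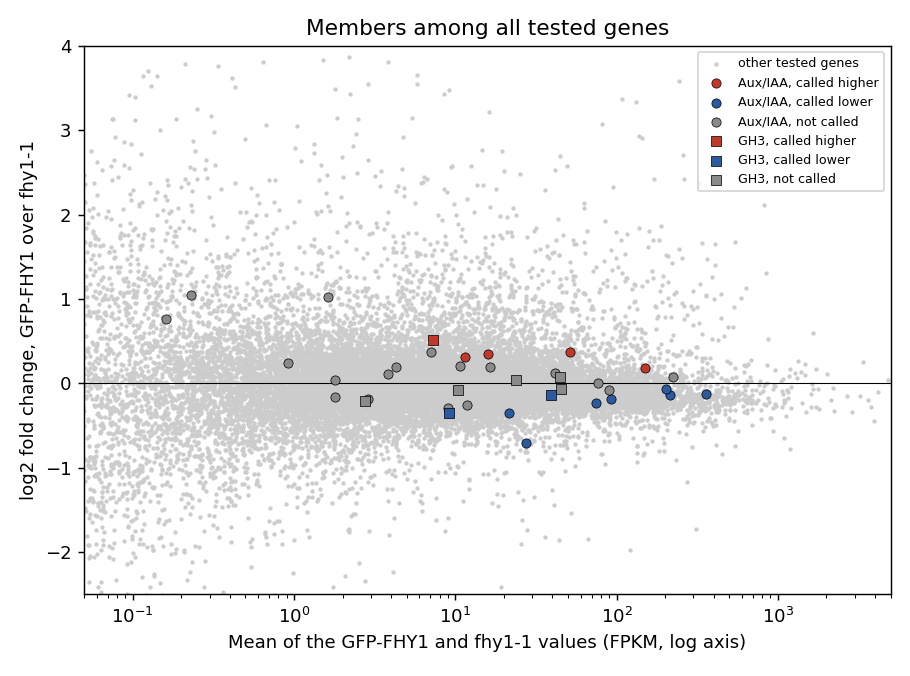
log2 fold change (GFP-FHY1 over fhy1-1) against the mean level in FPKM (log axis) for the 37 members, circles for Aux/IAA and squares for GH3 coloured by call, over 23318 other tested genes in grey, of which 523 lie outside the axes. The called members, in red and blue, all lie right of 5 FPKM and close to the zero line.

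Close relatives often differed in their calls. By coding sequence, 10 pairs of Aux/IAA genes and 3 pairs of GH3 genes were each other's nearest relative, at 57.0% to 80.6% and 56.0% to 84.1% identity of bases. Only IAA8 with IAA9 had both genes called in the same direction. In 6 Aux/IAA pairs and all 3 GH3 pairs 1 gene was called, and in none of these mutual pairs were the genes called in opposite directions. Outside them, IAA16 and IAA17, called lower, were nearest to IAA14, called higher, at 65.7% and 68.0% identity. IAA28, called higher, was nearest to IAA20, called lower, at 53.2% identity. IAA26 (-0.71) and its closest relative IAA18 (AT1G51950), with 74.3% identity, had intervals that did not overlap: IAA18 stood at 17.5 FPKM in the GFP-FHY1 line and 15.3 FPKM in fhy1-1, a log2 fold change of 0.19, from 0.03 to 0.36. GH3.10 and JAR1, at 56.0% identity, likewise had intervals that did not overlap. For the other pairs with 1 call the intervals overlapped, which does not decide whether the relatives differ. No difference between relatives was tested. How reads that match both copies were divided is not stated, so levels within the most similar pairs are less certain.

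**Figure D4:**
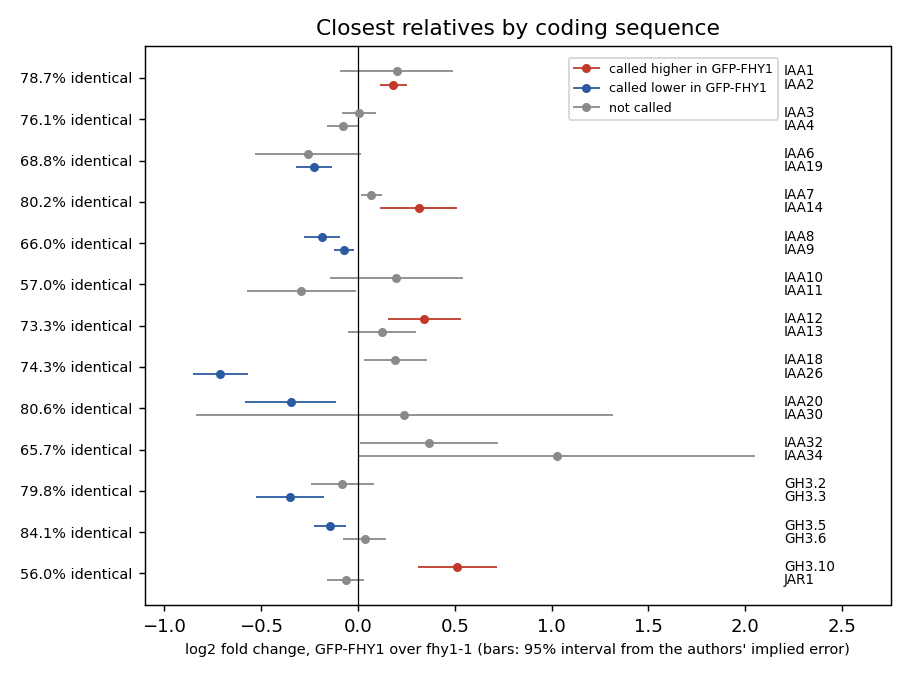
log2 fold change (GFP-FHY1 over fhy1-1) of the 13 pairs of closest relatives, with bars for the 95% interval from the authors' implied error and colours for the call; the left axis gives the identity of the coding sequences, and names stand at the right. IAA18 and IAA26 lie furthest apart among the pairs with a called gene, at 0.19 and -0.71.

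Members that lie side by side on a chromosome did not share a call as deposited. IAA3 and IAA17 lie 6706 bases apart on chromosome 1, IAA14 and IAA1 11038 bases apart on chromosome 4, and IAA2 and IAA7 12878 bases apart on chromosome 3, with 1 other gene between the last pair and none between the others. In each of the 3 pairs 1 gene was called: IAA17 lower, IAA14 higher and IAA2 higher. The intervals of IAA14 (0.12 to 0.51) and IAA1 (-0.09 to 0.49) overlapped, as did those of IAA2 (0.11 to 0.26) and IAA7 (0.01 to 0.13). The interval of IAA17 ended at -0.0809, just below the start of that of IAA3 at -0.0808. Relative to the median gene, IAA2 and IAA7 were both called higher. No difference between neighbours was tested. The locus of IAA13 (AT2G33310), which was not called at 43.4 FPKM in the GFP-FHY1 line and 39.8 FPKM in fhy1-1, overlaps another gene, and no other member's locus does.

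The promoters were searched for letters bound by factors of the auxin and light pathways. Both strands of the 250 bases before each gene start were searched. Where the RefSeq (TAIR10.1) and deposited gene starts differ, the outer one was used. The motifs were the auxin response element TGTCTC, the ARF-binding box TGTCGG, the G-box CACGTG and the PBE-box CATGTG. Both the G-box and the PBE-box are bound by PIF factors, and the G-box also by HY5. TGTCTC was found before 9 of 29 Aux/IAA genes (31.0%) and 3 of 8 GH3 genes (37.5%), against 10.8% of 22621 tested genes. TGTCGG was found before 6 Aux/IAA genes (20.7%) and no GH3 gene, against 4.54%. The G-box was found before 4 Aux/IAA genes (13.8%) and 1 GH3 gene, against 7.23%, and the PBE-box before 6 and 3, against 11.4%.

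Among the called genes, TGTCTC was found before 3 of the 7 Aux/IAA genes called lower (IAA8, IAA19 and IAA20) and before none of the 4 called higher. Of the GH3 genes called, GH3.3 and GH3.5 held TGTCTC and GH3.10 held none of the 4 motifs. IAA26 and IAA28, the Aux/IAA genes with the greatest called changes, held none of the 4 either. The windows of GH3.10 and IAA26, both on the minus strand, begin at 1501600 and 5614804. Their loci in the deposited table end at 1499865 and 5614410, and the bases between were not searched. The same holds for the 4 Aux/IAA genes called higher. The windows of IAA2 and IAA14 (minus strand) begin at 8182096 and 8350264, and their loci end at 8181800 and 8350019. The windows of IAA28 and IAA12 (plus strand) end at 9033203 and 1240293, and their loci begin at 9033415 and 1240375. Other members have such unsearched bases too, so a lack of a match holds for the window alone. Shown are IAA19, with 3 TGTCTC matches, a G-box and a PBE-box, IAA20, with 1 TGTCTC match and a G-box, and IAA26, with no match. Matches on either strand are in capitals and do not overlap, and the last base stands next to the outer gene start. The windows are chr3:5263751-5264000 (plus strand) for IAA19, chr2:19307464-19307713 (plus strand) for IAA20 and chr3:5614804-5615053 (minus strand) for IAA26. A match is a description and not a binding site.
IAA19: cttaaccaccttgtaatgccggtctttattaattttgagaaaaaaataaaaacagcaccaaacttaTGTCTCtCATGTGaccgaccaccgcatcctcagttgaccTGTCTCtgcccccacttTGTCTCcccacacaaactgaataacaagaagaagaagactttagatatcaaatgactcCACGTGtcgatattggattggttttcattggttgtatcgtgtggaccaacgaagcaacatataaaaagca
IAA20: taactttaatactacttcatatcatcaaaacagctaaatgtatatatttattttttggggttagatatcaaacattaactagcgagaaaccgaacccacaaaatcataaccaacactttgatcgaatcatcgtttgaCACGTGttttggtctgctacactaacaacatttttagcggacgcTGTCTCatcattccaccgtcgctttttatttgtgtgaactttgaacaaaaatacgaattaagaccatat
IAA26: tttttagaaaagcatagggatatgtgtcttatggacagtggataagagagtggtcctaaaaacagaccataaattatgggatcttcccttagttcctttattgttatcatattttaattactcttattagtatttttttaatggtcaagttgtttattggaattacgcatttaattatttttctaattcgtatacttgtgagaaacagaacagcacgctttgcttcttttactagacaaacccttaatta

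Other genes of the auxin pathway were called in both directions. Among 33 of them, 4 were called higher and 4 lower, 24.2%, close to the 22.8% of all tested genes. Their means ran from 4.36 to 53.2 FPKM, and 35.3% of all tested genes at a mean of at least 5 FPKM were called. ARF18 (AT3G61830), an auxin response factor, stood apart with 7.22 FPKM in the GFP-FHY1 line and 17.1 FPKM in fhy1-1, a log2 fold change of -1.25, from -1.41 to -1.09. Of the other 14 ARF genes, ARF7 (0.16) and ARF8 (0.17) were called higher and ARF6 (-0.13) lower. ARF7, known as NPH4, acts with IAA19 in hypocotyl bending and with IAA14 in root branching.

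Of 6 receptor genes, AFB1 (-0.13) and AFB2 (-0.14) were called lower, and TIR1 stood at 45.8 FPKM in the GFP-FHY1 line and 45.2 FPKM in fhy1-1. Of 5 TOPLESS-type corepressor genes, only TPR4 was called, at a log2 fold change of 0.18. Of 7 genes for auxin conjugate hydrolases and for a pair of oxygenases listed with them, AT1G14120, annotated as a 2-oxoglutarate and Fe(II)-dependent oxygenase, was called higher (0.31). IAR3, which frees auxin from its alanine conjugate, stood at 42.3 FPKM in the GFP-FHY1 line and 41.7 FPKM in fhy1-1. The loci of ARF7, AFB1 and TPR4 overlap other genes.

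**Figure D5:**
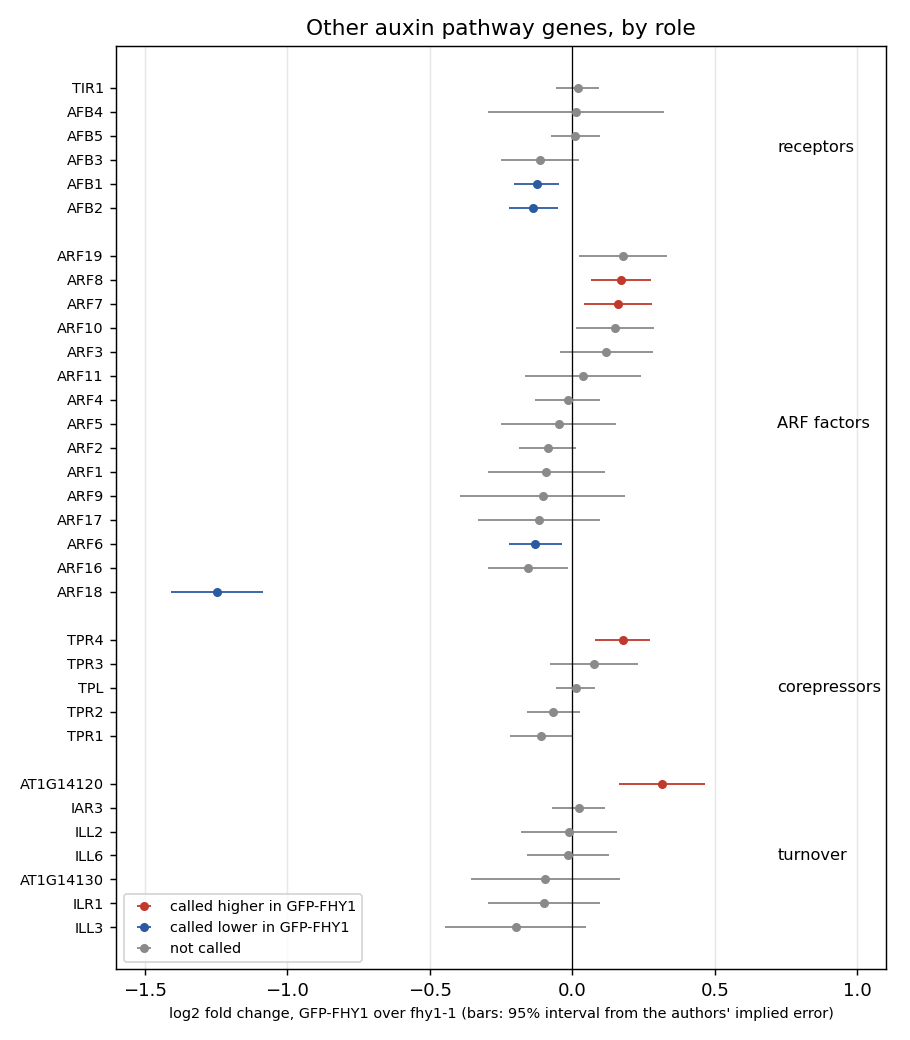
log2 fold change (GFP-FHY1 over fhy1-1) of 33 other auxin pathway genes grouped by role, with bars for the 95% interval from the authors' implied error; red was called higher, blue lower and grey not called. ARF18 lies at -1.25, and all others lie between -0.20 and 0.31.

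Few of these calls held when an assumed extra spread between libraries was added. Whether the error implied by the authors' test already holds such a spread is not known, and the true spread could not be checked. When a spread of 10% between libraries was added to that error, IAA26 and GH3.10 stayed called and the other 12 members did not, with 7.55% of all tested genes called. With 20% added no member was called, against 2.81% of all tested genes. Relative to the median gene, which lay at -0.05 on the log2 scale, IAA9, IAA20 and GH3.5 lost their calls and IAA7 and IAA18 were called higher. Of the other auxin pathway genes called, only ARF18 stayed called with 10% added. Relative to the median gene, AFB1, AFB2 and ARF6 lost their calls, and ARF10 and ARF19 were called higher.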

How the data were processed

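RNA from 3 libraries per genotype was sequenced with an Illumina mRNA protocol, per the labels. Bowtie and the TAIR10 build are named, per the submitters' processing notes. Per the file headers, the deposited table has the layout of Cuffdiff. Program versions, read filters and strand settings were not given in the sources used here. Its header names no unit for the value columns, read here as FPKM, which the authors combined over the libraries of a genotype. Depth is therefore unknown. Per the file headers the table also holds a test statistic, a score whose sign runs against that of the fold change. The authors' deposited p-value equals its two-sided normal tail to within 2.75e-06, and adjusting these by Benjamini-Hochberg returns the deposited q-value to within 1.82e-06.

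The log2 fold changes printed were computed from the deposited FPKM values. The implied error is the log2 fold change divided by the score, and intervals span 1.96 errors either way. They cover the error of the authors' test alone. The labels call the libraries biological replicates, but no spread between libraries could be checked. Alternatives with an added replicate spread or with centring used this error, a normal test and Benjamini-Hochberg adjustment over all tested genes with a finite implied error. This step, without the centring, was run on simulated data with 2-fold changes, larger than any called change of a member. The simulated errors came from the same normal model, so the run does not show how the step fares at the sizes seen here. Coordinates are those of the table, written from 1. Names, coding sequences and promoters come from RefSeq (TAIR10.1), whose nuclear gene coordinates share a start or end with 40.5% to 43.6% of the table's genes on each chromosome. Promoters end before the outer of both gene starts. Of the 37 members, 28 had the symbol used here in RefSeq and 9 had it as a synonym. Where RefSeq gives several proteins for a gene, the one with the lowest accession number was used. Coding sequences were aligned globally (Biopython 1.88). Python 3.11.15, pandas 2.3.3, NumPy 2.4.6 and SciPy 1.17.1 were used.

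The members and lists were chosen with earlier results of these data known. All 37 members could be named, and of each other auxin list the called genes, or else the most abundant one. TIR1 and IAR3 were named after their values were seen. Promoter motifs, degron codons and pairs of relatives were chosen after earlier results were seen.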

Additional observations from a re-analysis of the deposited data

How the results depend on the processing

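As deposited, 4 Aux/IAA genes were called higher and 7 lower, and 1 GH3 gene higher and 2 lower. The counts for the Aux/IAA genes were 2 higher and 4 lower with Bonferroni adjustment, and the GH3 genes had 0 lower. Requiring at least a 2-fold difference left 0 calls in either family and direction. With a replicate spread of 10% added there were 0 Aux/IAA genes higher and 1 lower, and 1 GH3 gene higher and 0 lower, and with 20% added all 4 counts were 0. Stricter thresholds and wider errors lower such counts by construction. Centred on the median gene, the counts were 6 and 5 for Aux/IAA genes and 1 and 1 for GH3 genes. A q below 0.01 gave 3 and 5 Aux/IAA genes and left the GH3 counts at 1 and 2, and a minimum of 1 FPKM or leaving out overlapping loci moved no count. Under the alternatives applied to it, the median log2 fold change stayed between 0.02 and 0.12 for Aux/IAA genes and between -0.07 and -0.02 for GH3 genes. The sign of the Aux/IAA median depended on abundance. It was -0.03 for the 20 Aux/IAA genes at a mean of at least 5 FPKM and 0.20 for the 9 under it. No called member could change direction under these alternatives. All but the centring keep the deposited direction, and the centring shift of 0.05 is smaller than the smallest called change of 0.07. No paired analysis was possible because the libraries of a genotype were merged into 1 value, which also means that none could be left out. The depth of the libraries is unknown, and among members under 5 FPKM the implied error limits what can be seen.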
